A study of Homo sapiens with 6 samples.

Results

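Replication-dependent histone genes encode the linker histone H1 and the core histones H2A, H2B, H3 and H4, the proteins that package newly made DNA. They were taken as the genes whose symbol starts with HIST1H, HIST2H, HIST3H or HIST4H and whose counts over the 6 libraries summed to at least 10. This rule held for 55 of the 71 genes with such symbols, in a table of 36601 genes of which 18015 reached the same summed count. Of the 16 genes below the limit, 9 had a count of 0 in every library, and the other 7 had summed counts of 1 to 8. The genes nearest to the limit on its inner side, HIST1H3J and HIST1H4A, had a summed count of 11. The 55 genes comprised 4 H1, 14 H2A, 14 H2B, 12 H3 and 11 H4 genes, with 41 in the HIST1 cluster on chromosome 6, 11 in HIST2 and 2 in HIST3 on chromosome 1, and 1 in HIST4 on chromosome 12.

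The libraries came from NK-92, a human natural killer (NK) cell line, carrying a stable control short hairpin RNA (shCtrl, n = 3) or one against miR155HG, the non-coding host transcript of miR-155 (shmiR155HG, n = 3). Both groups were given IL-2 at 1000 U/mL with IL-12 at 10 ng/mL for 12 h before RNA was taken. The study asked which genes change when miR155HG is silenced, and shmiR155HG was therefore compared with shCtrl. The titles give 3 numbered replicates a group, but whether these were separate cultures or transductions is not given, so p-values measure the spread between these libraries, which may be technical. In the treatment labels of shmiR155HG replicates 2 and 3 the number in the hairpin's name differs from that in their titles.

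Total counts per library lay between 33454786 and 39157264, and levels are given as CPM, counts scaled to a common library total after TMM scaling. MIR155HG had 73, 67 and 62 counts in shCtrl and 28, 19 and 10 in shmiR155HG, giving a log2 change of −1.78 ± 0.43 (SE, adjusted p = 0.00615 in edgeR's quasi-likelihood test). Of 10 NK cell markers, all were fitted, and 3 (IL2RB, TBX21 and EOMES) rose and 3 (GZMB, PRF1 and NCR3) fell. Their summed level was 4134 to 4139 CPM in shCtrl and 3734 to 3866 CPM in shmiR155HG, and without GZMB it was 2888 to 2971 CPM and 3225 to 3298 CPM. CD7 was the one NK marker near 0, at no more than 0.876 CPM. Of other cell types' markers, the 5 myeloid ones summed to 8.76 to 14.6 CPM and the 5 epithelial ones to 0 to 0.602 CPM. Of the B cell markers, PAX5 was at 228.3 to 263.7 CPM in shCtrl and 339.0 to 342.1 CPM in shmiR155HG, CD79A was at no more than 1.10 CPM, and MS4A1 was at 0 in every shmiR155HG library. The 6 T cell markers summed to 68.6 to 78.5 CPM, nearly all of it TRAC, with CD8B at 0 in every library. The part of these marker levels in the results below was not tested.

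Histone genes of this kind are transcribed mainly in S phase, when DNA is copied. Most of their mRNAs have no introns and no poly(A) tail. They end instead a few bases past a short stem-loop, which is bound by the stem-loop binding protein SLBP, and the cut is made by a complex built on U7 small nuclear RNA. Some of these genes also make longer transcripts that are spliced or read past the stem-loop to a poly(A) site. The libraries were made from RNA captured with oligo(dT) beads, which hold poly(A) tails, and members took only 0.00798% to 0.0159% of all counts.

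The stem-loop was found in the annotated mRNA of all 55 members, between 22 and 67 bases after the stop codon. Of the 55, 44 had a stem opening with GGCTCT and 11 one opening with GGCCCT, and these 11 were the H4 genes. The most frequent 16 bases were shared by 33 members from H1, H2A, H2B and H3. One gene of each class is shown, chosen because its values are described below, with the stem-loop in capitals and up to 5 bases on either side in lower case (GRCh38 sequence, GENCODE release 44 transcripts, written 5′ to 3′ on the gene's strand).
HIST1H1C (chr6:26055744-26055759, minus strand): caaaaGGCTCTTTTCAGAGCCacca
HIST1H2AC (chr6:26124669-26124684, plus strand): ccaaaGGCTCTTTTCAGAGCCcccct
HIST1H2BJ (chr6:27132321-27132336, minus strand): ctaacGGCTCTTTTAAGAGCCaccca
HIST2H3C (chr1:149840692-149840707, minus strand): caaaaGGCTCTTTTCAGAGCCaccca
HIST1H4C (chr6:26104317-26104332, plus strand): ccaaaGGCCCTTTTCAGGGCCgctca

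Promoters were compared over 250 bases before to 50 bases after each start in the RefSeq table of GRCh38, which held 50 of the 55 members. The octamer ATTTGCAT, the element that the factor Oct-1 binds in H2B promoters, was found on either strand in 20 members (9 H2A and 11 H2B) and in no H1, H3 or H4 member. That was 40% of the members' promoters, against 1.77% of all 35116 promoters of the table. The TATA box letters TATAAA were in 64% of the members' promoters and 11.5% of all, and CCAAT was in 84% and 34.6%. In 7 H2B promoters the octamer began 45 to 49 bases before the start. The windows below, with the octamer or its reverse complement in capitals, show 3 of these H2B genes and the H2A gene that shares its octamer with HIST2H2BE in a divergent pair.
HIST2H2BE (chr1:149886713-149886736, minus strand): gagccctaATTTGCATaaggtggt
HIST2H2AC (chr1:149886713-149886736, plus strand): accaccttATGCAAATtagggctc
HIST1H2BJ (chr6:27132827-27132850, minus strand): ttcaccttATTTGCATaagcgatt
HIST1H2BK (chr6:27146889-27146912, minus strand): ttcaccttATTTGCATgagaggtc

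Replication-dependent histone mRNA captured with oligo(dT) beads was higher in shmiR155HG. Of the 55 genes, 15 rose at an adjusted p under 0.05 and 0 fell in edgeR's quasi-likelihood test, while of all 18015 genes 4.35% rose and 5.17% fell. The 55 include 3 pairs of identical copies, and with each pair summed 15 of 52 rose. That count includes HIST2H2AA3 with HIST2H2AA4, neither of which passed alone with all libraries. No member fell at an unadjusted p under 0.05, in edgeR's exact test or in DESeq2's test either. The log2 fold change was above 0 for 50 of 55 genes, with a median of 1.05, against 0.01 over all genes fitted. Values of the 2 groups did not overlap and were higher in shmiR155HG for 27 of 55 members, against 12.1% of all genes. No member had all its shmiR155HG values below those of shCtrl. More cells making histone mRNA, more histone mRNA per cell and a larger captured share of it cannot be told apart in these bulk libraries.

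Summed over the 55 genes, the level was 86.1, 86.0 and 80.3 CPM in shCtrl and 142.6, 157.9 and 154.8 CPM in shmiR155HG. The means were 84.1 ± 3.35 CPM and 151.8 ± 8.09 CPM (SD, n = 3 each), a ratio of 1.80. The 5 genes with the most counts, HIST1H1C, HIST1H2AC, HIST3H2A, HIST1H2BK and HIST2H2AA3 (tied with its twin HIST2H2AA4), held 60.8% of all member counts, and the ratio of their sum was 1.66. The sum over the other 50 members gave a ratio of 2.06, with no overlap between the groups in either sum. Among the 26 members with a summed count of at least 150, 14 were called higher, against 6.15% of all genes with that many counts, and the median log2 fold change was 0.93, against −0.003. That sum includes the shmiR155HG counts, and HIST2H3D reached it with 4, 10 and 0 counts in shCtrl. The 26 were also the members over 1 CPM in at least 2 libraries, 9 of them only through shmiR155HG. This split by counts therefore lends no separate support. Among the 29 with fewer counts, 1 was called higher, against 0.237% of all genes with so few, and 7 of the 29 did not overlap and were higher in shmiR155HG, against 6.5%. The plot of fold change against level shows the members among all genes. For members with a summed count of at least 150 the quartiles of the log2 fold change were 0.55 and 1.36, against −0.12 and 0.12 for all genes with that many. With fewer counts they were 0.28 and 2.39, against −0.60 and 0.94, and these ranges overlap.

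**Figure D1:**
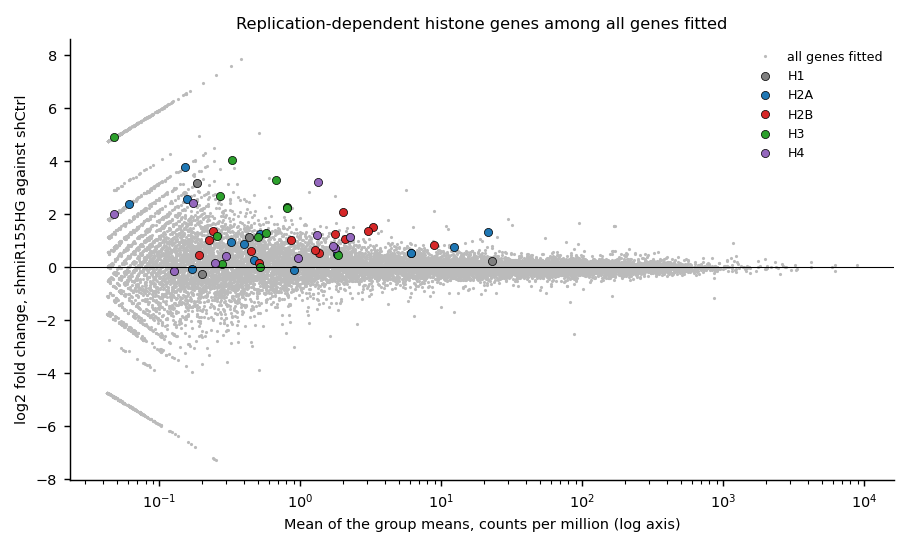
Log2 fold change of shmiR155HG against shCtrl (vertical axis) by mean level in CPM (horizontal log axis) for the 18015 genes fitted (grey) and the 55 replication-dependent histone genes, coloured by class. Of the 55 members, 50 lie above 0, and the diagonal lines at low levels are genes with 0 counts in all libraries of one group or with few counts.

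By class the ratio of the summed levels ranged from 1.19 to 2.53. H1 was lowest, with sums of 24.1, 20.3 and 20.5 CPM in shCtrl and 25.1, 26.2 and 26.2 CPM in shmiR155HG, a ratio of 1.19. That sum was nearly all HIST1H1C. Over the other 3 H1 genes the ratio was 2.13, from means of 0.526 and 1.12 CPM, and the groups overlapped. H2A went from 35.1 ± 4.08 to 66.7 ± 4.58 CPM (SD, n = 3 each), a ratio of 1.90, and H2B from 16.9 ± 0.763 to 35.5 ± 2.99 CPM, a ratio of 2.10. H3 had the lowest core histone level, with 4.53, 3.70 and 3.54 CPM in shCtrl and 9.76, 9.42 and 10.6 CPM in shmiR155HG, and its ratio of 2.53 was the highest of the 5 classes. H4 went from 6.55 ± 1.16 to 13.9 ± 1.09 CPM, a ratio of 2.12. In each class the 3 shmiR155HG sums lay above the 3 shCtrl sums, and differences between the classes were not tested. By cluster, the ratio was 1.83 for HIST1, 1.83 for HIST2 and 1.66 for HIST3, and no overlap was seen in any of them. HIST4H4, the one gene of HIST4, overlapped between the groups, with 25, 20 and 52 counts in shCtrl and 69, 30 and 22 in shmiR155HG, and its log2 change of 0.36 became −0.22 without shmiR155HG replicate 1.

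**Figure D2:**
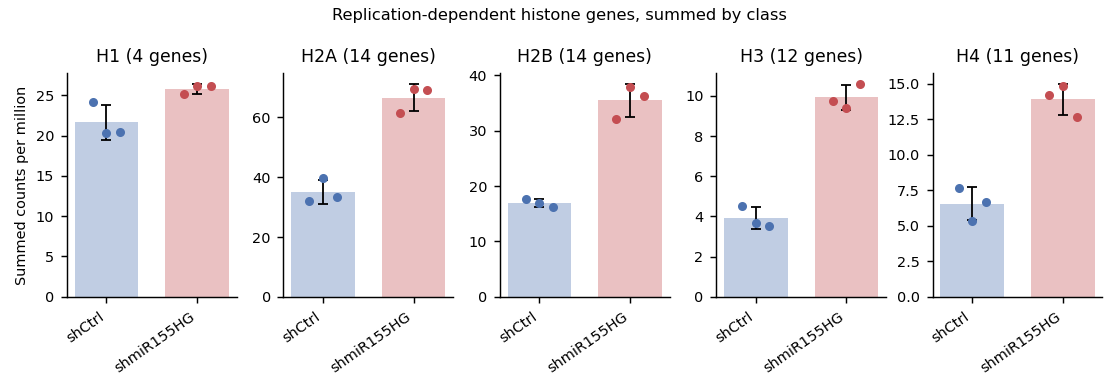
Summed CPM of each histone class in each library (points), with the group mean (bar) and SD (error bar), n = 3 libraries a group; each panel has its own axis, starting at 0. The shmiR155HG sums lie above the shCtrl sums in all 5 classes, with the smallest ratio in H1 (1.19) and the largest in H3 (2.53).

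H1, which binds the DNA between nucleosomes, had no gene called higher by edgeR or DESeq2 among its 4 members and 1 higher at an unadjusted p under 0.05, and HIST1H1C held 96.5% of H1 counts. HIST1H1C, the member with the highest summed count, had 906, 721 and 790 counts in shCtrl and 928, 938 and 852 in shmiR155HG. In CPM its groups did not overlap, at 21.1 ± 1.93 and 24.7 ± 0.619 CPM, but its log2 fold change of 0.23 (SE 0.10) did not pass the test (adjusted p = 0.17, edgeR). HIST1H1B, with 4, 0 and 0 counts against 12, 11 and 14, and HIST1H1E, with 12, 11 and 8 against 17, 38 and 12, also did not overlap and did not pass. HIST1H1D overlapped between the groups and was at 0 in 1 library of each.

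H2A and H2B pair into dimers that flank the H3 and H4 core of the nucleosome. Of the 14 H2A genes, 2 rose. HIST1H2AC, at chr6:26124145-26139116, had 429, 527 and 430 counts in shCtrl and 1158, 1203 and 1033 in shmiR155HG. Every shmiR155HG library held at least 1033 counts and no shCtrl library more than 527, and it rose by a log2 change of 1.34 ± 0.11 (SE, edgeR adjusted p = 1.32e-09). HIST3H2A, in the small cluster at the far end of chromosome 1, had 305, 393 and 345 counts against 523, 620 and 550, giving a log2 change of 0.75 ± 0.14 (SE, edgeR adjusted p = 0.000513). HIST1H2AC held 42.2% of H2A counts, and without it the H2A sum kept a ratio of 1.56 with no overlap.

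HIST2H2AA3 and HIST2H2AA4 are a pair of identical genes, with 100% and 99.8% of their 100-base windows found in the other copy, and their counts were nearly equal in each library. HIST2H2AA3 had 174, 204 and 185 counts in shCtrl and 225, 297 and 269 in shmiR155HG, a log2 fold change of 0.55 (SE 0.19) that did not pass the test alone (adjusted p = 0.0698, edgeR). Summed into 1 gene, a step added after the values were seen, the pair had 348, 409 and 368 counts against 450, 595 and 538 and did pass (log2 fold change 0.55, adjusted p = 0.0119, edgeR). How shared reads were counted is not given, and if 1 read was counted in both copies, this p is too small. Each copy alone also passed without shmiR155HG replicate 1 (adjusted p = 0.0425 and 0.0414, edgeR). The remaining H2A genes overlapped between the groups, apart from HIST1H2AB and HIST1H2AD, and their log2 fold changes had SEs of 0.32 or more.

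All 14 H2B genes had a log2 fold change above 0, and 6 of them rose, the largest count of any class. HIST1H2BK had 292, 215 and 231 counts against 407, 480 and 370, giving a log2 change of 0.82 ± 0.16 (SE, edgeR adjusted p = 0.00072). HIST1H2BJ had 70, 52 and 72 counts against 153, 209 and 170, giving a log2 change of 1.51 ± 0.25 (SE, edgeR adjusted p = 0.000158). HIST1H2BD had 47, 54 and 92 counts against 174, 169 and 139, giving a log2 change of 1.37 ± 0.28 (SE, edgeR adjusted p = 0.00114). None of these 3 genes overlapped between the groups, and each stayed called when any 1 library was left out. The annotated span of HIST1H2BD overlaps that of a gene on the opposite strand, AL353759.1. Whether their exons overlap was not checked. If they do, reads there cannot be told apart, since the strand of the libraries is not given.

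HIST2H2BE had the largest H2B change, with 37, 27 and 24 counts in shCtrl and 119, 156 and 89 in shmiR155HG, giving a log2 change of 2.09 ± 0.33 (SE, edgeR adjusted p = 6.74e-05). Its one annotated transcript reads 1729 bases past the stem-loop. HIST1H2BN had 50, 31 and 37 counts against 82, 85 and 104, giving a log2 change of 1.27 ± 0.34 (SE, edgeR adjusted p = 0.0141), and lost its call without shCtrl replicate 2 or without shmiR155HG replicate 3 (adjusted p = 0.0667 and 0.0986, edgeR). HIST1H2BH had 54, 49 and 50 counts against 61, 107 and 137. Its shCtrl counts lay close together, while its shmiR155HG counts spread from just above them upward. Its log2 fold change was 1.07 (SE 0.34, edgeR adjusted p = 0.0406), and the call was lost in 8 of 17 alternatives, among them each left-out library other than shmiR155HG replicate 1 (adjusted p 0.0921 to 0.321 in those, edgeR).

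**Figure D3:**
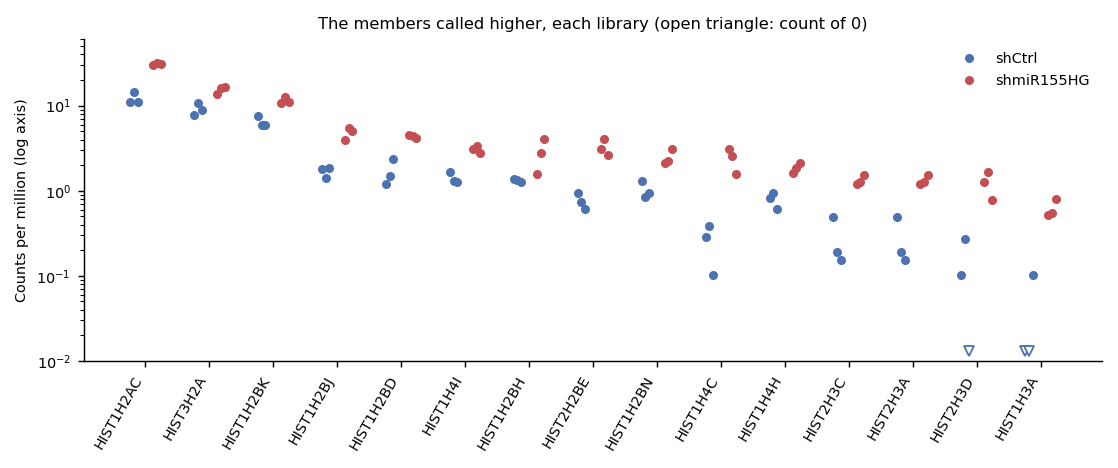
CPM in each library (points, log axis) for the 15 members called higher, ordered by summed count, with shCtrl in blue and shmiR155HG in red; open triangles at the bottom mark counts of 0. In all 15 genes the 3 shmiR155HG libraries lie above the 3 shCtrl libraries.

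H3 and H4 form the tetramer at the centre of the nucleosome. Of the 12 H3 genes, 4 rose, and all 4 had few counts in shCtrl. HIST2H3C and HIST2H3A are identical copies, and each had 19, 7 and 6 counts in shCtrl. In shmiR155HG HIST2H3C had 46, 49 and 52 counts, giving a log2 change of 2.25 ± 0.54 (SE, edgeR adjusted p = 0.00592), and HIST2H3A had 46, 48 and 52 counts and 2.24 (SE 0.54, edgeR adjusted p = 0.00622). The copies are therefore 1 observation, with 38, 14 and 12 counts against 92, 97 and 104 when summed (log2 change 2.26, edgeR adjusted p = 0.000341). The p of this sum is likewise too small if reads were counted in both copies.

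HIST2H3D had 4, 10 and 0 counts in shCtrl and 49, 63 and 26 in shmiR155HG, giving a log2 change of 3.28 ± 0.72 (SE, edgeR adjusted p = 0.00301), and lost its call without shmiR155HG replicate 2 (adjusted p = 0.0594, edgeR). HIST1H3A had 0, 0 and 4 counts in shCtrl and 20, 21 and 27 in shmiR155HG. Its log2 fold change of 4.04 (SE 1.14, edgeR adjusted p = 0.0206) rests on 4 counts in shCtrl, and the call held with 1 library left out only for shCtrl replicate 3, after which the control counts were all 0. Without each of the others the adjusted p was 0.0603 to 0.125 (edgeR). HIST1H3H, the H3 gene with the most counts, overlapped between the groups, with 76, 58 and 43 counts against 96, 65 and 76. HIST1H3J, which overlaps HIST1H2AM on the same strand, had no count in shCtrl and 11 in shmiR155HG, which is at least 3.8-fold higher against a floor of 3 counts over the group. With that gene at this bound the median log2 fold change of H3 was 1.61, and with its fitted value 1.77.

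Of the 11 H4 genes, 3 rose. HIST1H4C, at chr6:26103933-26104337, had 11, 14 and 4 counts in shCtrl and 119, 97 and 53 in shmiR155HG, giving a log2 change of 3.22 ± 0.46 (SE, edgeR adjusted p = 1.85e-05). Every alternative that could be fitted called it. The gene lies on the opposite strand within the annotated span of HIST1H2BC, which had 22, 54 and 36 counts against 62, 68 and 43 and overlapped between the groups. Whether the exons of this pair overlap was not checked. If they do, reads there cannot be told apart without strand. HIST1H4I had 64, 47 and 50 counts against 120, 128 and 93, giving a log2 change of 1.13 ± 0.29 (SE, edgeR adjusted p = 0.011), and lost its call without shmiR155HG replicate 2 (adjusted p = 0.0591, edgeR). HIST1H4H had 32, 34 and 24 counts against 62, 70 and 72 and gave a log2 change of 1.23 ± 0.38 (SE, edgeR adjusted p = 0.0355). Its groups did not overlap, but it lost its call without any 1 of the 6 libraries (adjusted p 0.0543 to 0.137, edgeR). HIST2H4A and HIST2H4B, which are identical copies, had 131, 60 and 105 counts when summed in shCtrl and 157, 192 and 134 in shmiR155HG, and neither passed alone.

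**Figure D4:**
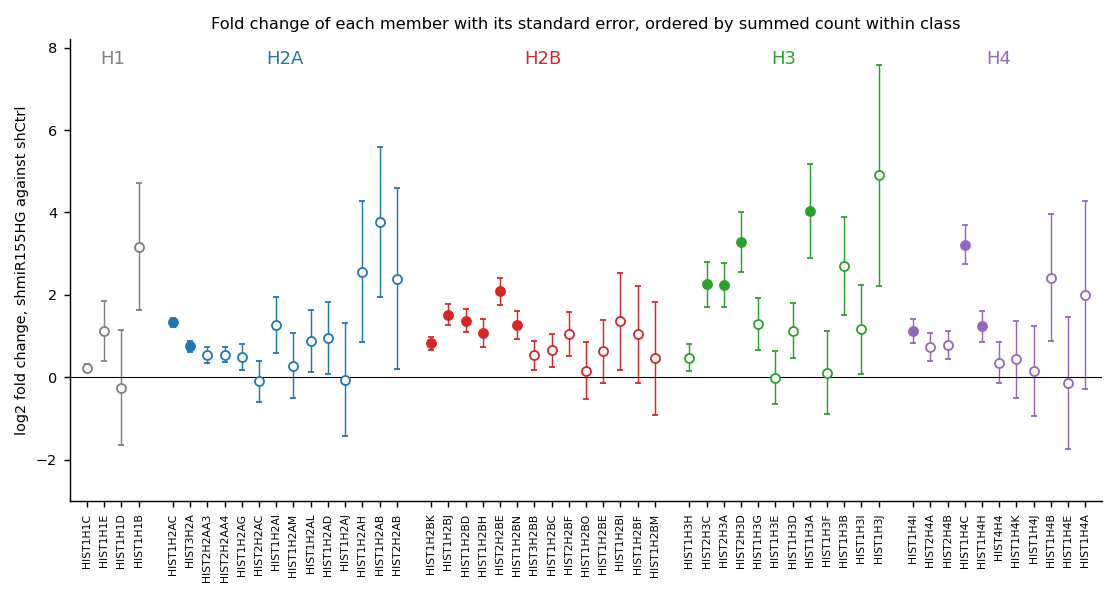
Log2 fold change of shmiR155HG against shCtrl for each of the 55 members with its standard error (error bar), grouped by class and ordered by summed count from left to right within a class. Filled points are the 15 members called at an adjusted p under 0.05, and 5 of the open points lie below 0.

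The 40 members that were not called had 35 log2 fold changes above 0 and 5 below. The 5 were HIST1H1D, HIST1H2AJ, HIST1H3E, HIST1H4E and HIST2H2AC, between −0.25 and −0.01, each overlapping between the groups and above 0 when some 1 library was left out. HIST1H2AJ shares 61.8% of its 100-base windows with HIST1H2AI (log2 fold change 1.26, not called), so its value may include reads of that gene. Of the 40, 12 did not overlap and were higher in shmiR155HG, against 12.1% of all 18015 genes, called ones included. An unadjusted p under 0.05 in edgeR's quasi-likelihood test was reached by 7, and the share of all genes at that limit was not counted. Low counts limit what could be seen: SEs ran from 0.10 for HIST1H1C to 2.69 for HIST1H3J, and 13 members had a count of 0 in some shCtrl library, against 5 in some shmiR155HG library. Per kilobase of the canonical transcript the highest members were HIST1H2AC at 41.4, HIST1H1C at 31.3 and HIST3H2A at 24.1 CPM per kilobase, as means over the 6 libraries.

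The filter used by the study, more than 1 CPM in at least 2 libraries, kept 26 of the 55 members. Of these 26, 9 passed only through the shmiR155HG libraries, so their selection leaned to that group. Under that filter 14 members were called higher and 0 lower, against 7.26% of all genes called higher. Of the 14, HIST2H2BE, HIST1H2BN, HIST1H4C, HIST1H4H, HIST2H3C, HIST2H3A and HIST2H3D were among those 9, so the count lends no separate support. These 26 were the same genes as the 26 with a summed count of at least 150.

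Longer transcripts were annotated for 17 members, 16 with an end past the stem-loop and HIST1H3J with a spliced form that ends at it, and not for the other 38. Of the 17, 7 rose, and of the 38, 8 rose. The sum over the 17 went from 35.8 ± 2.51 to 76.1 ± 2.52 CPM, a ratio of 2.13, and that over the 38 from 48.3 ± 3.03 to 75.7 ± 5.57 CPM, a ratio of 1.57 (SD, n = 3 each). HIST1H1C is among the 38 and makes up much of that sum. Some members reach a summed count of at least 150 mainly through their shmiR155HG counts. With that many, 7 of 14 members with longer transcripts rose (median log2 fold change 0.91) and 7 of 12 without (0.95). Genes of both forms were therefore called, and a difference between the forms was not tested. The counts are per gene, so which form a read came from is not known.

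Called genes were found with and without the octamer. Of the 20 members with an octamer 5 rose, and of the 30 without 9 rose, and the medians on the log2 scale were 0.92 and 0.96. The 20 were all H2A or H2B genes, and of the 7 H2A and H2B genes without an octamer 3 rose, with a median of 0.75. Of the 7 H2B genes with the octamer 45 to 49 bases before the start, 4 rose (HIST1H2BK, HIST1H2BJ, HIST1H2BH and HIST2H2BE). By stem-loop, 12 of 44 members with the GGCTCT stem and 3 of 11 with the GGCCCT stem rose.

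In 6 divergent pairs of an H2A and an H2B gene, 1 octamer lay in both promoters, and 3 of these pairs are described. HIST2H2BE rose, while HIST2H2AC, which starts on the other strand from the same stretch, had 63, 21 and 23 counts in shCtrl and 45, 33 and 19 in shmiR155HG. The ratio of HIST2H2BE to HIST2H2AC counts within a library was 0.587, 1.29 and 1.04 in shCtrl and 2.64, 4.73 and 4.68 in shmiR155HG. HIST1H2AG, the partner of HIST1H2BJ, had 58, 45 and 71 counts in shCtrl and 65, 96 and 74 in shmiR155HG and was not called, and the ratio of HIST1H2BJ to it was 1.21, 1.16 and 1.01 against 2.35, 2.18 and 2.3. These were the 2 of 6 pairs whose ratios did not overlap between the groups. HIST1H2AC, in contrast, was called where its H2B partner HIST1H2BC was not, and the ratio of HIST1H2BC to HIST1H2AC overlapped, with 0.0513, 0.102 and 0.0837 in shCtrl and 0.0535, 0.0565 and 0.0416 in shmiR155HG. With 3 libraries against 3 a two-sided exact permutation test of 1 such ratio cannot give a p below 0.10, so none is given.

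The genes that make and process these mRNAs moved in both directions. Of 19 such genes 2 rose and 1 fell, and their median log2 fold change was −0.01. SLBP, which binds the stem-loop shown above, had 263.0, 261.7 and 275.4 CPM in shCtrl and 232.0, 223.5 and 230.6 CPM in shmiR155HG and fell by 0.22 on the log2 scale (SE 0.04, edgeR adjusted p = 0.000151). UPF1, an RNA helicase needed for the decay of histone mRNA, rose by 0.25 (SE 0.03, edgeR adjusted p = 1.06e-05), and SRRT, a cap-binding complex partner also known as ARS2, rose by 0.23 (SE 0.04, edgeR adjusted p = 7.69e-05). NPAT, the coactivator of histone gene transcription, had giving a log2 change of −0.15 ± 0.07 (SE, edgeR adjusted p = 0.213). CPSF3, the endonuclease that cuts the mRNA end, had −0.16 (SE 0.05, edgeR adjusted p = 0.0619).

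Histone variant genes, which are expressed outside S phase as well and whose mRNAs mostly carry poly(A) tails, had sums that overlapped between the groups. Of 10 fitted, 0 rose and 1 fell in edgeR's test, and the median log2 fold change was −0.03. Their summed level was 2204 to 2216 CPM in shCtrl and 2150 to 2233 CPM in shmiR155HG, far above the sum over the 55 replication-dependent genes. The gene that fell was H2AFY, which encodes macroH2A (log2 fold change −0.11, SE 0.03, adjusted p = 0.0397, edgeR), a call that was lost without any 1 library other than shCtrl replicate 1 (adjusted p 0.0693 to 0.186, edgeR). At an unadjusted p under 0.05, 2 variant genes rose, and DESeq2 called 0. Of 14 histone chaperones 0 rose in edgeR's or DESeq2's test (1 at an unadjusted p under 0.05) and 5 fell, with a median of −0.09, among them CHAF1B of the chromatin assembly factor CAF-1 (−0.31, SE 0.07, adjusted p = 0.00193, edgeR) and SUPT16H of the FACT complex (−0.19, SE 0.03, adjusted p = 0.000182, edgeR).

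S phase genes went the other way. Of 30, 17 fell and 0 rose in edgeR's test, 0 also at an unadjusted p under 0.05 or with DESeq2. The median was −0.17 on the log2 scale, and the sum was 8011 to 8231 CPM in shCtrl and 7171 to 7237 CPM in shmiR155HG. RRM2, a subunit of ribonucleotide reductase, fell by 0.40 on the log2 scale (SE 0.03, edgeR adjusted p = 2.36e-10), and CCNE2, a cyclin E gene, fell by 0.72 (SE 0.07, edgeR adjusted p = 1.34e-08). CDC45, part of the replicative helicase, fell by 0.36 (SE 0.05, edgeR adjusted p = 2.99e-05), and PCNA, the sliding clamp of DNA polymerase, by 0.25 (SE 0.04, edgeR adjusted p = 4.01e-05). Of 20 genes of G2 and M phase, 4 rose and 5 fell, with a median of 0.03. CENPF, a kinetochore protein, rose by 0.36 (SE 0.03, edgeR adjusted p = 1.01e-08), and CDK1, the mitotic kinase, fell by 0.39 (SE 0.05, edgeR adjusted p = 4.4e-06).

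Other RNAs that lack a poly(A) tail were few in the table. Of 31 listed, 3 had a row, and the sum over these 3 was 0.412 to 0.602 CPM in shCtrl and 1.94 to 3.61 CPM in shmiR155HG. RMRP, a catalytic RNA of RNase MRP, showed 4, 10 and 18 counts in shCtrl and 70, 117 and 41 in shmiR155HG and rose by a log2 change of 2.85 ± 0.50 (SE, edgeR adjusted p = 0.000294). TERC, the telomerase RNA, had 3, 0 and 0 counts against 4, 10 and 20, and SCARNA9 had 9, 12 and 4 against 12, 11 and 4, and neither passed the test. RNA quality values were not used here, and the part of poly(A) capture in the histone result was not tested.

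**Figure D5:**
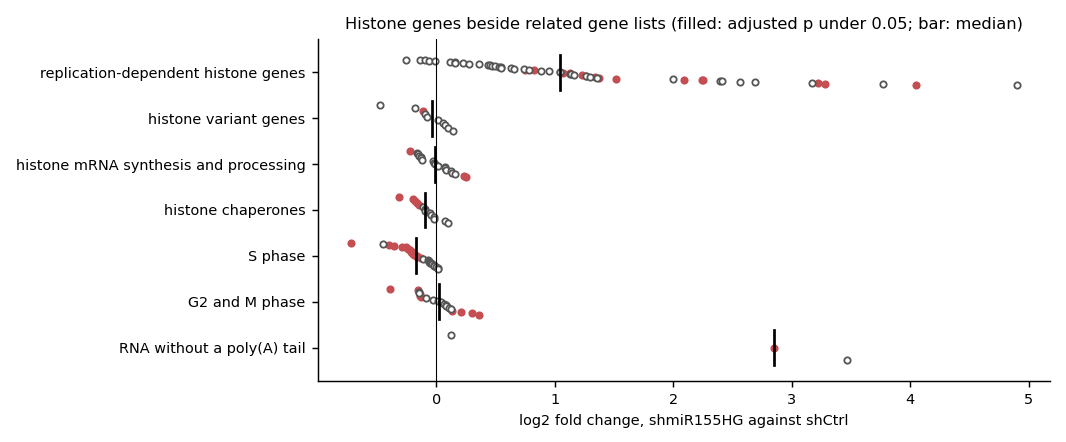
Log2 fold change of shmiR155HG against shCtrl for each fitted gene (points, filled where the adjusted p is under 0.05) of the replication-dependent histone genes and 6 related lists, with the list's median as a vertical bar. The median is 1.05 for the replication-dependent histone genes, −0.03 for the variant genes and −0.17 for S phase. For the 3 RNAs without a poly(A) tail it is 2.85, the value of RMRP, the only 1 of them called.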

How the data were processed

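The deposited table holds whole-number counts per gene for 6 RNA-seq libraries, not normalized, made by the authors from paired reads of 150 bases. HISAT2 was used for alignment against hg38, StringTie (-e) for quantification and prepDE.py3 to merge the gene counts. Versions, the annotation release and the strand setting are not given in the sources used here. Such counts are computed from read coverage, so a count need not equal 1 fragment, and intervals from counting were not drawn. Reads that fit several histone copies may be split between them or counted in each.

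Genes with a summed count of at least 10 (18015) were fitted with edgeR 4.0.16 in R 4.3.3: TMM scaling, quasi-likelihood test with robust estimation, two-sided, group as the one term, Benjamini-Hochberg adjustment over all genes fitted, called at an adjusted p under 0.05. SEs are the log2 fold change divided by the root of F. CPM were scaled to the library total after TMM. The code was tested on simulated data. Alternatives were other scalings, filters, tests (among them DESeq2 1.42.0), halved counts, a replicate block and leaving out each library. A correction for GC content and transcript length and the summing of identical pairs were added after the data were seen.

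Members named with per-library values were those called and the 10 with the most counts, with further genes chosen after their values were seen (HIST1H1B, HIST1H1E, HIST4H4, HIST1H3H, HIST1H3J, HIST1H2BC, HIST2H2AC, HIST1H2AG, HIST2H4A and HIST2H4B). From the related lists, up to 4 genes with the smallest adjusted p were named, with RMRP, SLBP and NPAT. Members and lists were chosen with earlier results of these data known. Gene positions and stem-loops come from GENCODE release 44, matched by gene ID (HIST2H2AA3 and HIST2H2AA4 by RefSeq synonym). Replicates of a group differed by more than sampling noise. One cell type marker of the lists is not reported here.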

Additional observations from a re-analysis of the deposited data

How the results depend on the processing

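With 17 alternatives, the number of members called higher stayed between 10 and 15 and the number called lower at 0. DESeq2's Wald test called 13, and the GC content and length correction called 14. The median log2 fold change of the members, 1.05, was 0.94 with the filter of 1 CPM in 2 libraries (26 members fitted) and 0.89 with filterByExpr (43 members fitted). With 1 library left out it was 0.78 to 1.07, lowest without shmiR155HG replicate 2, where 10 members were called and the genes called higher fell from 784 to 483. Of the 15 members called, 9 stayed called in every alternative that fitted them, among them the identical copies HIST2H3C and HIST2H3A. The 6 others (HIST1H4I, HIST1H2BH, HIST1H2BN, HIST1H4H, HIST2H3D and HIST1H3A) lost their call in some, most often with 1 library left out, which leaves fewer samples. Of 50 named genes run, 43 kept the sign of their log2 fold change and 7, none of them called, did not. With 1 library left out these ranged from −1.03 to 0.424 for HIST1H1D, −0.372 to 0.573 for HIST2H2AC, −0.558 to 0.188 for HIST1H2AJ, −0.355 to 0.222 for HIST1H3E, −0.523 to 0.404 for HIST1H4E, −0.223 to 0.858 for HIST4H4 and −0.215 to 0.516 for SCARNA9. HIST1H4E was at 0.0501 with halved counts and HIST2H2AC at 0.00267 with the replicate block. H2AFY lost its call with total counts and with the exact test (adjusted p = 0.0504 and 0.109, edgeR). HIST1H3A was not fitted under the 1 CPM filter and had no adjusted p from DESeq2. Without shCtrl replicate 3 its control counts were all 0.

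No sign of pairing by replicate number was seen. Deviations from the group means of libraries with the same number had correlations of −0.02, −0.01 and −0.01, which cannot show how the replicates were made. With the replicate block 14 members were called higher and the median was 0.997, and HIST1H2BH lost its call (adjusted p = 0.0683, edgeR). Counts under 150 limit 29 of the 55 members, of which 1 was called.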
